A study of Mus musculus with 6 samples.

Results

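The Notch pathway was read here through 10 mouse genes, namely the receptor genes Notch1, Notch2, Notch3 and Notch4, the ligand genes Jag1, Jag2, Dll1 and Dll4, and the target genes Hes1 and Heyl. They were taken by gene symbol. They are 10 of the 55401 gene IDs in the tables and all 10 were among the 15334 genes with enough reads for the test. Primary cholangiocytes, the epithelial cells that line bile ducts, came from wild-type (WT) mice and from mice with induced polycystic liver disease (PLD), a disorder in which bile ducts grow into cysts. Both groups were taken 3 months after tamoxifen and each had 3 libraries of polyadenylated RNA. Tamoxifen commonly switches on a Cre recombinase, but the labels give neither the Cre driver, the altered gene, the strain, the age in weeks nor the number of mice pooled in a library. Nor do they state that each library is a different mouse. The p-values here therefore speak only of the spread among libraries, which could be technical. Cells were caught on beads with an antibody to EpCAM, an epithelial surface protein, and purity was judged by staining for cytokeratin 19.

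Notch signalling passes between touching cells. A Jagged or Delta-like ligand on the sending cell pulls on a Notch receptor, ADAM proteases and gamma-secretase then cut the receptor, and its intracellular part enters the nucleus, joins the DNA-binding protein RBPJ and Mastermind-like proteins and switches on HES and HEY repressor genes. In the developing liver, Jagged1 of the portal mesenchyme and Notch2 of the liver precursor cells direct the formation of bile ducts, and mutations of either human gene cause Alagille syndrome, in which bile ducts are too few. Notch3 is best known from vascular smooth muscle and pericytes, and Notch4 and Dll4 from endothelium.

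The libraries held 15768561 to 16710548 counted reads, and 3 reads correspond to between 0.180 and 0.190 CPM (counts scaled to library size). The WT libraries carried much RNA of vessel genes beside that of bile duct genes. Epcam, the gene of the selection marker, stood at 355 ± 88.0 CPM in WT and 1085 ± 242 in PLD (SD, n = 3 libraries each). Pecam1, an endothelial adhesion gene, stood at 937 ± 129 CPM in WT and 77.9 ± 16.8 in PLD. The summed CPM of 19 endothelial markers ran from 7607 to 9882 in WT and from 683 to 1102 in PLD, and all 19 fell (median log2 fold change -3.32, edgeR quasi-likelihood test with Benjamini-Hochberg adjustment). That of 13 smooth muscle and pericyte markers ran from 3747 to 4098 in WT and from 435 to 684 in PLD, with 12 of 13 lower. That of 13 fibroblast and stellate markers ran from 6953 to 12062 and from 1947 to 4850, with 9 lower and 1 higher. No endothelial or smooth muscle marker was at 0 in any library. The summed CPM of 15 cholangiocyte markers ran from 9656 to 14029 in WT and from 33099 to 45541 in PLD, with 13 higher and 1 lower (Sctr, the secretin receptor gene, log2 fold change -4.31). In such bulk samples, fewer cells of a type and less RNA per cell cannot be told apart.

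Across all tested genes, 4357 were lower in PLD (28.4%) and 4136 were higher (27%) at an adjusted p under 0.05, and the median log2 fold change was 0.01. All 3 PLD libraries lay below all 3 WT libraries for 33.2% of the tested genes and above them for 33%, and 18.1% were called and at least 2-fold lower. Of the 10 Notch genes, 6 fell and 0 rose, 7 had all PLD libraries below all WT libraries and 5 were called and at least 2-fold lower. Their median log2 fold change was -0.94. The genes that fell were Notch1, Notch3, Notch4, Dll1, Dll4 and Heyl. Notch2, Jag1, Jag2 and Hes1 did not pass the test. The counts of 6 and 0 stayed the same without replicate 1 of both groups, the libraries most unlike their group mates. The plot of library values by gene shows these groups.

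**Figure D1:**
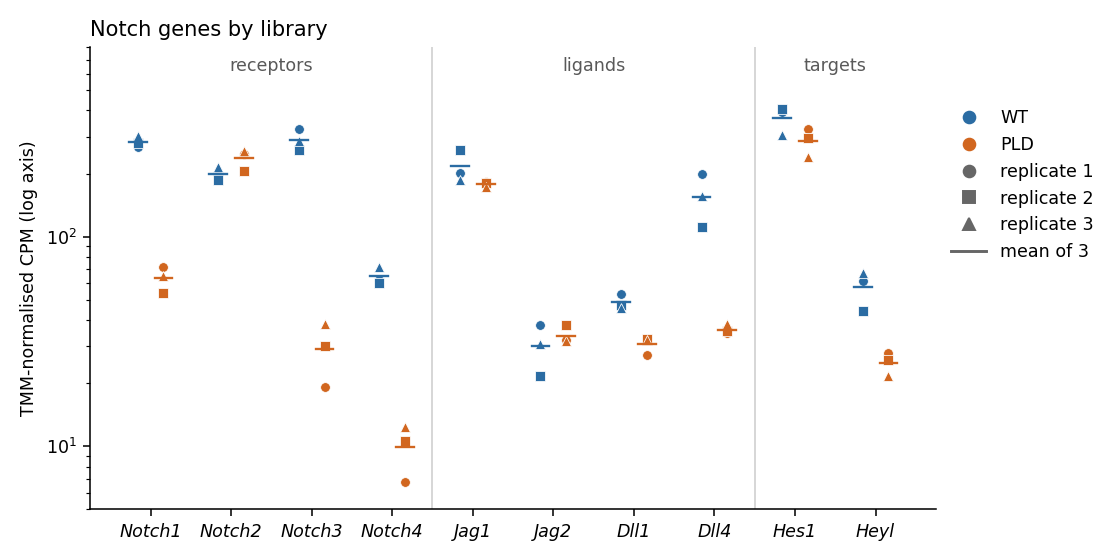
TMM-normalised CPM (log axis) of the 10 Notch genes in each of the 6 libraries, with WT in blue, PLD in orange, marker shapes for replicates and bars for the means of 3. The 3 PLD points lie clear below the 3 WT points for Notch1, Notch3, Notch4, Dll1, Dll4 and Heyl, and the groups lie close together or overlap for Notch2, Jag1, Jag2 and Hes1.

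The upstream stretches of the 4 receptor genes are shown because 3 of them fell and Notch2 did not pass the test. Each line gives 90 bases upstream of the RefSeq start of transcription (build GRCm38.p6), 5′ to 3′ on the gene's own strand. The stretch of Notch1 runs from 92 to 3 bases before the start and that of Notch2 from 101 to 12. Those of Notch3 and Notch4 run from 90 to 1 and from 117 to 28 bases before it. Capitals mark the GC box, GGGCGG or CCGCCC on the other strand, a binding motif of SP-family factors.
Notch1, chr2:26503825-26503914, minus strand: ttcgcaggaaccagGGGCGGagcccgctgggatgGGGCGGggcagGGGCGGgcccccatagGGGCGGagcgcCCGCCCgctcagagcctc
Notch2, chr3:98013437-98013526, plus strand: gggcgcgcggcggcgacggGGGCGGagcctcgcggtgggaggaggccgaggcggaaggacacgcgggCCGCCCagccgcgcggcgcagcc
Notch3, chr17:32166891-32166980, minus strand: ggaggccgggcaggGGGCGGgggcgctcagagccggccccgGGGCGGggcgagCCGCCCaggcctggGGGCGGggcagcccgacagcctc
Notch4, chr17:34564178-34564267, plus strand: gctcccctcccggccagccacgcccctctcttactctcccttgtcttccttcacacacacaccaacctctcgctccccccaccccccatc
In the 250 bases before the start, the GC box occurred 5 times for Notch1, 5 times for Notch2 (2 of them in the stretch above), 4 times for Notch3 and 0 times for Notch4. It occurred in 32.7% of 32851 RefSeq promoters of the same length. Of the ligand genes, Jag2 had 5 GC boxes, Dll4 had 2, and Jag1 and Dll1 had 0. The RBPJ heptamer GTGGGAA, or TTCCCAC on the other strand, occurred in 5.42% of those promoters and in none of the 9 promoters listed for 8 of the Notch genes (Dll1 has 2 of them). RefSeq promoters of Hes1 and Heyl were not analysed here. Such letter matches describe the window and are no measure of binding. For Notch1, the stretch lies inside the gene as counted, whose annotated exons begin further upstream.

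Notch1 encodes a receptor of wide expression. It spans chr2:26457903-26516663 on the minus strand of mm10, with 14232 exonic bases. Its level was 268, 279 and 302 CPM in WT replicates 1, 2 and 3, and 72.0, 54.0 and 65.1 CPM in PLD replicates 1, 2 and 3. The groups were far apart, and the spread within each was small. Notch1 was 4.44-fold lower in PLD (log2 fold change -2.15 ± 0.13 SE, 95% interval -2.46 to -1.84, edgeR adjusted p = 4.65e-05). An antisense gene, 0610009E02Rik, shares 1068 exonic bases with Notch1 and held 3 to 11 reads a library, against 14168 WT and 3016 PLD reads of Notch1.

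Notch2 encodes the receptor most tied to bile duct formation. It spans chr3:98013527-98150361 on the plus strand, with 10782 exonic bases. Its level was 197, 187 and 215 CPM in WT and 248, 205 and 256 CPM in PLD. PLD replicates 1 and 3 lay above all WT libraries, and PLD replicate 2 lay within the WT range. The difference did not pass the test (log2 fold change 0.24 ± 0.12 SE, edgeR adjusted p = 0.122), with a 95% interval of -0.04 to 0.52. With the trend of fold change on gene length removed, an alternative chosen after seeing the data, Notch2 was called higher (log2 fold change 0.51, adjusted p = 0.00625).

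That alternative bears on the family because many of the genes are long, though Hes1 has only 2037 and Dll4 3852 exonic bases. Among the 8148 tested genes with at least 4000 exonic bases, the median log2 fold change was -0.11 and 33.9% were lower. Among the 2549 with at least 8000 exonic bases, a class that holds all 4 receptors, the median was -0.25, 41.3% were lower and 16.3% higher. Notch1, Notch3 and Notch4 lay far below the median of their length class and Notch2 above it.

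Notch3 encodes the receptor best known from vessel wall cells. It spans chr17:32120820-32166852 on the minus strand, with 8089 exonic bases. Its level was 326, 258 and 286 CPM in WT and 19.1, 30.0 and 38.2 CPM in PLD. The highest PLD library was far below the lowest WT library, and PLD replicate 1 was the lowest of the 3. Notch3 was 9.93-fold lower in PLD (log2 fold change -3.31 ± 0.25 SE, 95% interval -3.90 to -2.72, edgeR adjusted p = 7.52e-05), the largest change among the 10 genes. The reads behind it were 14510 in WT and 1406 in PLD.

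Notch4 encodes a receptor found mainly in endothelium. It spans chr17:34564268-34588503 on the plus strand, with 8061 exonic bases. Its level was 62.0, 60.2 and 71.6 CPM in WT and 6.75, 10.6 and 12.4 CPM in PLD. The PLD libraries kept the order seen for Notch3, with replicate 1 lowest and replicate 3 highest. Notch4 was 6.50-fold lower (log2 fold change -2.70 ± 0.22 SE, edgeR adjusted p = 9.13e-05).

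The unequal change altered the receptor mix. Levels of different genes were compared as TPM, a scale that divides reads by exonic length. The summed TPM of the 4 receptors was 333 ± 15.4 in WT and 107 ± 15.4 in PLD (SD, n = 3). TPM is scaled to the total of each library without TMM factors, so its group differences can depart from those in CPM. In summed CPM, the WT mean of the receptors was 2.47 times the PLD mean. Notch2 made up 21.5%, 22.7% and 23.4% of that sum in the WT libraries and 73.6%, 68.3% and 68.7% in the PLD libraries. Its share was thus the lesser part in every WT library and the main part in every PLD library. The mean share of Notch3 went from 43.5% ± 3.33 to 11.5% ± 3.45, that of Notch1 from 24.2% ± 1.86 to 14.3% ± 1.6 and that of Notch4 from 9.75% ± 0.683 to 3.95% ± 1.11. For each receptor the shares of the groups did not overlap (two-sided exact permutation p = 0.1, the smallest that 3 against 3 libraries can give, and 0.114 adjusted over the 8 shares tested). The TPM of Notch2 itself was 75.1 ± 3.71 in WT and 74.7 ± 9.88 in PLD, and its CPM was 200 ± 14.4 and 236 ± 27.4. Its larger share thus stood beside lower levels of the other 3.

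**Figure D2:**
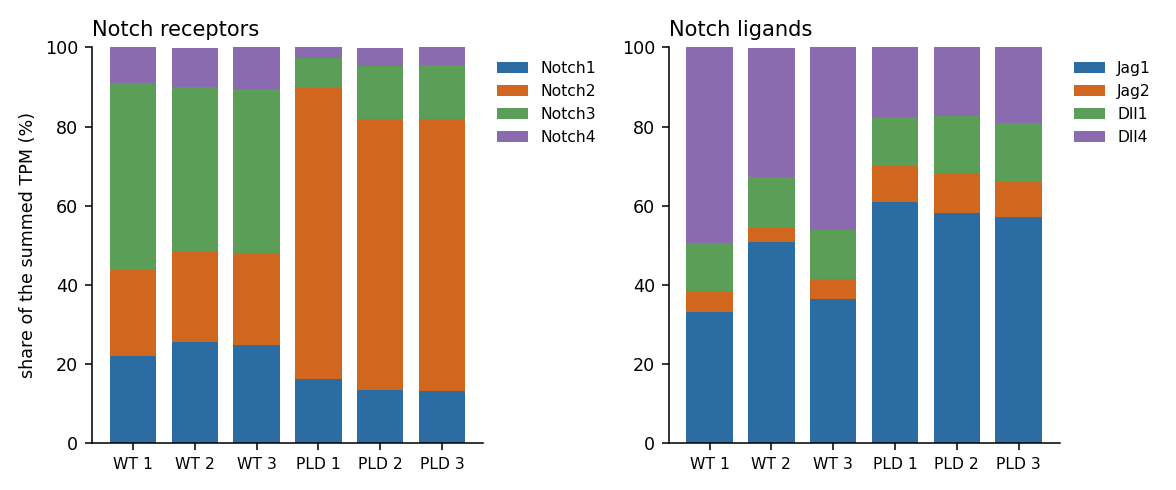
Stacked bars of the share (%) of each gene in the summed TPM of the 4 receptors (left) and of the 4 ligands (right), one bar per library. Notch2 takes 21.5% to 23.4% of the receptor bars in WT and 68.3% to 73.6% in PLD, and Dll4 takes 32.7% to 49.5% of the ligand bars in WT and 17.3% to 19.1% in PLD.

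Ratios within a library do not depend on how libraries are scaled to each other. They rest on the same reads as the shares and fold changes, so they are no separate evidence. The log2 ratio of Notch1 to Notch2 reads fell by 2.40 from WT to PLD, that of Notch3 to Notch2 fell by 3.60 and that of Notch4 to Notch2 fell by 2.98. In each case all PLD ratios lay below all WT ratios (exact permutation p = 0.1, adjusted over 8 pairs 0.16).

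Jag1 encodes the Jagged ligand of the portal tract. It spans chr2:137081456-137116644 on the minus strand, with 5827 exonic bases. Its level was 202, 260 and 187 CPM in WT and 183, 180 and 173 CPM in PLD. Every PLD library lay below every WT library, but the gap between the nearest was only from 183 to 187 CPM. The difference did not pass the test (log2 fold change -0.28 ± 0.14 SE, 95% interval -0.60 to 0.04, edgeR adjusted p = 0.118).

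Jag2 encodes the second Jagged ligand. It spans chr12:112907819-112929776 on the minus strand, with 6965 exonic bases. Its level was 38.0, 21.6 and 30.8 CPM in WT and 32.0, 37.7 and 31.6 CPM in PLD. The WT libraries held both the highest and the lowest value. The difference did not pass the test (log2 fold change 0.16 ± 0.20 SE, 95% interval -0.31 to 0.63, edgeR adjusted p = 0.515), and its sign rested on WT replicate 2, without which it was -0.03.

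Dll1 encodes a Delta-like ligand. It spans chr17:15367354-15376872 on the minus strand, with 4219 exonic bases. Its level was 53.0, 47.3 and 45.5 CPM in WT and 27.3, 32.3 and 32.2 CPM in PLD, with no overlap. Dll1 was 1.59-fold lower (log2 fold change -0.67 ± 0.12 SE, 95% interval -0.94 to -0.40, edgeR adjusted p = 0.00228), the smallest change among the genes that fell.

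Dll4 encodes the Delta-like ligand of sprouting vessels. It spans chr2:119325784-119335962 on the plus strand, with 3852 exonic bases. Its level was 199, 111 and 156 CPM in WT and 34.6, 35.4 and 38.1 CPM in PLD. WT replicate 2 was well below WT replicate 1, the PLD libraries were close to each other, and the groups were far apart. Dll4 was 4.31-fold lower (log2 fold change -2.11 ± 0.21 SE, 95% interval -2.59 to -1.63, edgeR adjusted p = 1.98e-04). The antisense gene Gm14207 shares 214 of its exonic bases and held 5 to 40 reads a library, against 7772 WT and 1717 PLD reads of Dll4.

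The ligand mix changed with Dll4. The summed TPM of the 4 ligands was 379 ± 40.6 in WT and 177 ± 12.6 in PLD. In summed CPM, the WT mean of the ligands was 1.62 times the PLD mean. Dll4 made up 49.5%, 32.7% and 46.1% of it in WT and 17.5%, 17.3% and 19.1% in PLD, and Jag1 made up 33.3%, 50.9% and 36.6% in WT and 61.0%, 58.1% and 57.3% in PLD. Jag1 and Dll4 shared the lead in WT, in an order that differed between libraries, and Jag1 led in every PLD library. The mean share of Jag2 went from 4.60% ± 0.926 to 9.29% ± 0.764 (exact permutation p = 0.1 for these 3 ligands, 0.114 adjusted over 8 shares). The share of Dll1 was 12.4% ± 0.383 and 13.9% ± 1.17 (p = 0.2, exact permutation test). Within libraries, the log2 ratio of Dll4 to Jag1 reads fell by 1.80, with no overlap of the groups (exact permutation p = 0.1, adjusted 0.16). The ratios of Dll1 to Jag1 (difference -0.40, p = 0.2) and of Jag2 to Jag1 (difference 0.46, p = 0.3) overlapped between the groups in exact permutation tests.

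Hes1 encodes a repressor switched on by Notch and by other signals, and was the gene with the highest TPM of the 10 in both groups. It spans chr16:30064384-30067796 on the plus strand, with 2037 exonic bases. Its level was 394, 405 and 305 CPM in WT and 325, 296 and 240 CPM in PLD. PLD replicate 1 lay above WT replicate 3, so the groups overlapped. The difference did not pass the test (log2 fold change -0.36 ± 0.16 SE, 95% interval -0.73 to 0.01, edgeR adjusted p = 0.0897). Hes1 was called lower with the length trend removed (log2 fold change -0.57, adjusted p = 0.0142).

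Heyl encodes a HEY-family repressor that is a known Notch3 target in vessel wall cells. It spans chr4:123233556-123249875 on the plus strand, with 5113 exonic bases. Its level was 61.3, 44.2 and 67.3 CPM in WT and 27.8, 25.7 and 21.6 CPM in PLD, with no overlap. Heyl was 2.30-fold lower (log2 fold change -1.20 ± 0.18 SE, 95% interval -1.62 to -0.79, edgeR adjusted p = 0.00112). The log2 ratio of Heyl to Hes1 reads fell by 0.83, from -2.69 ± 0.51 to -3.52 ± 0.04 (exact permutation p = 0.1, adjusted 0.16). That of Hes1 to Notch2 fell by 0.60, with overlapping groups (p = 0.2, exact permutation test).

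Ordered by mean TPM, the WT libraries ran from Hes1 (735 ± 124) through Dll4 (163 ± 45.7), Jag1 (151 ± 30.1), Notch3 (145 ± 16.5), Notch1 (80.7 ± 3.71), Notch2 (75.1 ± 3.71), Dll1 (46.8 ± 4.19), Heyl (45.6 ± 8.61) and Notch4 (32.5 ± 2.36) to Jag2 (17.5 ± 4.67). The neighbours Dll4, Jag1 and Notch3 overlapped in range, as did Notch1 with Notch2 and Dll1 with Heyl. In PLD the order by TPM was Hes1 (477 ± 46.1), Jag1 (104 ± 4.14), Notch2 (74.7 ± 9.88), Dll4 (31.9 ± 3.52), Dll1 (24.8 ± 3.74), Heyl (16.6 ± 1.21), Jag2 (16.5 ± 2.08), Notch1 (15.2 ± 1.82), Notch3 (12.4 ± 4.77) and Notch4 (4.24 ± 1.45). Each of the 4 genes from Heyl to Notch3 overlapped its neighbour in that run, and all other neighbours were apart. Notch2 moved from the 6th place to the 3rd, and Notch3 from the 4th to the 9th. These TPM levels divide by all annotated exonic bases of a gene, and the long Notch1 model, whose exonic bases exceed those of the other receptors, lowers its TPM.

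The vessel markers fell along with these genes, and the plot of fold changes beside the markers sets them on 1 scale. The log2 fold changes of Notch3 (-3.31) and Notch4 (-2.70) lay near the medians of the endothelial list (-3.32) and of the smooth muscle and pericyte list (-2.50). Notch1, Dll4, Heyl and Dll1 fell less than those medians, and the 4 genes not called lay between them and the cholangiocyte median of 1.57.

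**Figure D3:**
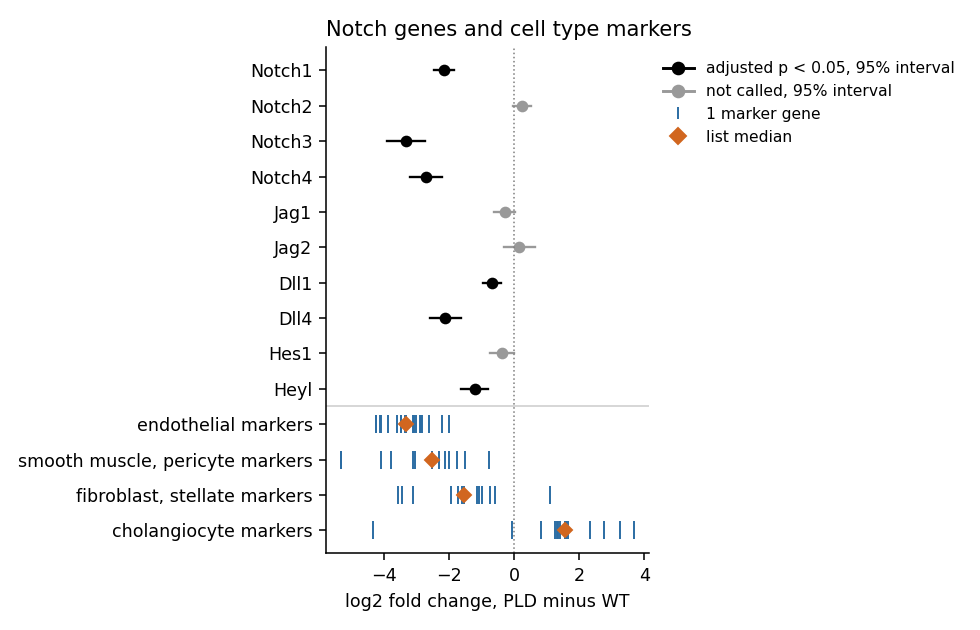
Log2 fold change (PLD minus WT) of the 10 Notch genes with 95% intervals, in black where the adjusted p was under 0.05, above the single genes (ticks) and medians (diamonds) of 4 marker lists. Notch3 at -3.31 lies by the endothelial median of -3.32, and Notch2 at 0.24 lies short of the cholangiocyte median of 1.57.

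Reads of each Notch gene were also counted per 100 reads of Epcam and per 100 reads of Pecam1. Per 100 Epcam reads, Notch1 stood at 83.5 ± 23.0 in WT and 5.97 ± 0.967 in PLD, and Notch2 at 58.4 ± 13.1 and 22.4 ± 4.93. All 10 genes, Notch2, Jag1, Jag2 and Hes1 among them, lay lower in every PLD library than in every WT library on that scale, as did 89% of all tested genes. Per 100 Pecam1 reads, Notch2 stood at 21.7 ± 3.75 in WT and 313 ± 79.4 in PLD and Notch3 at 31.6 ± 7.77 and 36.7 ± 4.92. On the Pecam1 scale 9 of the 10 genes lay higher in every PLD library, as did 94.9% of all tested genes, and Notch3 overlapped. With Epcam higher and Pecam1 lower in PLD, most genes part in this way on these scales, so the counts of 10 and 9 are near the background.

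Scales made of whole marker lists were added after seeing the data. Per endothelial marker read, the PLD mean over the WT mean was 0.969 for Notch3 (groups overlapping), 1.51 for Notch4, 2.32 for Dll4 and 2.36 for Notch1, the latter 3 without overlap, as for 93.8% of all tested genes. Per smooth muscle and pericyte marker read it was 0.664 for Notch3, with all PLD libraries below WT, 1.02 for Notch4 with overlap, and 1.6 for both Notch1 and Dll4. On that scale 8 of the 10 genes lay higher in every PLD library, beside 91.2% of all tested genes. The ratio was highest for Notch2, at 12.2 per endothelial and 8.30 per smooth muscle and pericyte marker read. Per cholangiocyte marker read all 10 genes lay lower in every PLD library, from 0.0332 for Notch3 to 0.377 for Notch2, beside 90.1% of all tested genes. The part of the vessel and bile duct markers in the changes of the Notch genes was not tested.

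**Figure D4:**
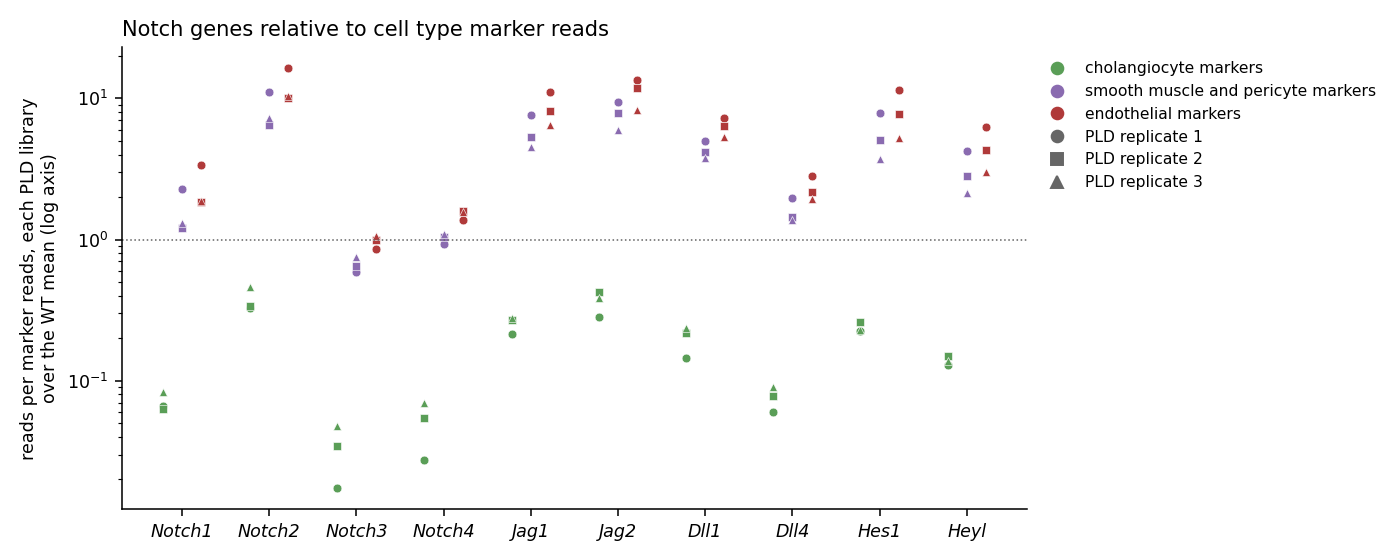
Reads of each Notch gene per read of 3 marker lists, for each PLD library divided by the WT mean (log axis, dotted line at equality). All points per cholangiocyte marker read lie below the line, and per endothelial marker read Notch3 lies at it with a mean of 0.969 and Notch2 far above it with a mean of 12.2.

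The genes with the most similar course over the 6 libraries were found by the root mean square difference of log2 CPM, each gene centred on its own mean, among 9947 genes. Nearest to Notch3 were Sncaip (0.067) and Mmrn2 (0.116), the latter an endothelial extracellular matrix gene that was 385, 394 and 396 CPM in WT and 25.8, 37.7 and 52.1 CPM in PLD. Notch4 was nearest to Hip1 (0.079) and Mpdz (0.081), and Notch1 to Ggt5 (0.106) and Dock6 (0.107). The nearest to Dll4 was Mfng (0.083), the Manic fringe gene, whose enzyme adds sugars to Notch receptors, and then Rab3il1 (0.140). Dll4 and Mfng both had their lowest WT value in WT replicate 2. Nearest to Notch2 were Avl9 (0.043) and Tjp1 (0.050), the gene of the tight junction protein ZO-1, at 511, 463 and 511 CPM in WT and 598, 531 and 620 in PLD. Jag1 was nearest to Fbxo22 (0.043), Jag2 to Hid1 (0.065) and Coq10a (0.083), Dll1 to Chordc1 (0.042) and C2cd5 (0.051), Hes1 to Phka2 (0.056) and Hdhd5 (0.065), and Heyl to Ripply3 (0.127) and Ikzf4 (0.137). Among the 10 Notch genes themselves, Jag1 and Hes1 were the closest pair by this measure (0.150), followed by Dll1 with Hes1 (0.268), Jag1 with Dll1 (0.276), Notch2 with Jag2 (0.281) and Notch1 with Dll4 (0.298). These are descriptions of 6 libraries in 2 groups.

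Another 65 genes of the pathway were listed by role. Of these, 59 were tested, 23 fell and 10 rose, with a median log2 fold change of -0.19, beside 28.4% lower, 27% higher and a median of 0.01 among all tested genes. The role lists hold 2 to 12 tested genes, and counts such as 3 of 9 or 4 of 12 lower are near that background. The number that fell was 15 without WT replicate 2, 14 without WT replicate 3 and 15 with the length trend removed. Of those called, 6 were at least 2-fold lower and 1 was at least 2-fold higher. Apart from Dlk1 and Dner, none of the called changes was larger in size than those of Notch1, Notch3, Notch4 and Dll4, as the plot of pathway genes by role shows.

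**Figure D5:**
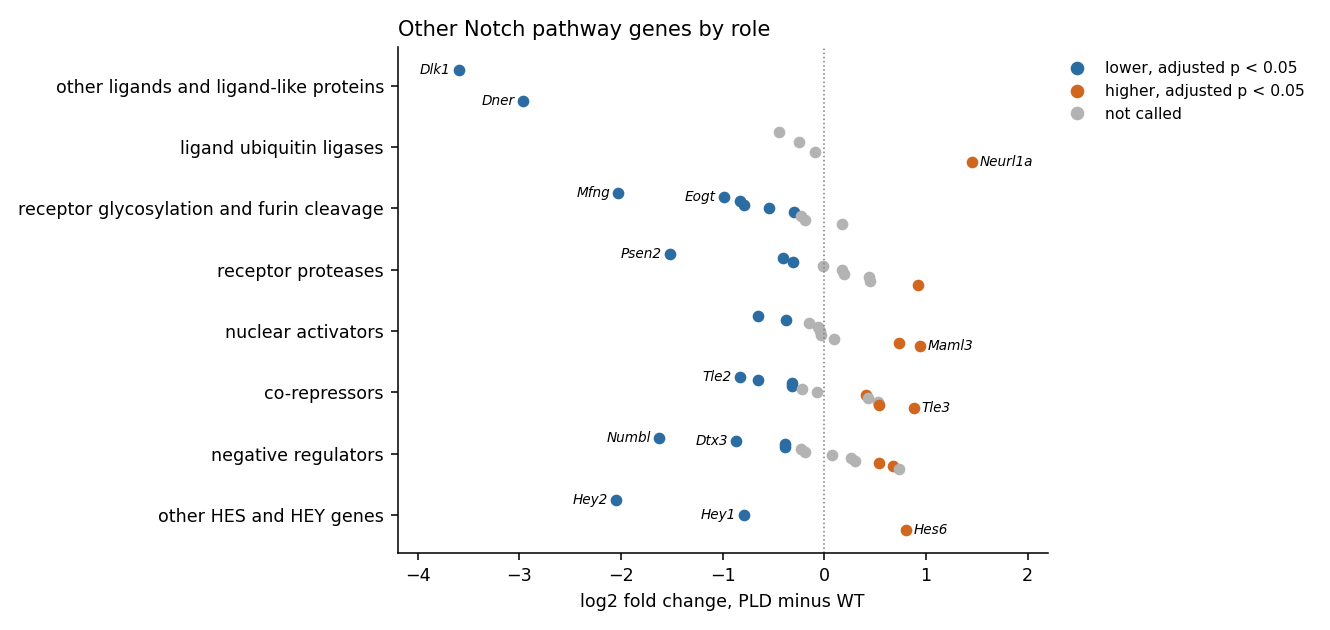
Log2 fold change (PLD minus WT) of the 59 tested genes of the pathway beyond the 10, by role, in blue where lower, orange where higher and grey where not called. Most points lie within 1 unit of 0, and Dlk1 (-3.60), Dner (-2.97), Hey2 (-2.05) and Mfng (-2.03) lie farthest to the left.

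Upstream of the receptors, both tested genes of ligand-like proteins fell, from few reads. Dlk1, a non-canonical ligand gene, had 69 reads in WT and 5 in PLD, a ratio of 13.9 (95% exact interval 5.66 to 44.0, counting error only). Dner had 68 and 8 reads, a ratio of 8.53 (4.09 to 20.6). Of the 4 genes of ubiquitin ligases that make ligands active, 1 rose, Neurl1a (log2 fold change 1.45 ± 0.39 SE, edgeR adjusted p = 0.0146), and its call was lost without WT replicate 3 (adjusted p = 0.0533). Mib2 and Neurl1b were at -0.25 and -0.45 and did not pass the test.

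Of the 9 genes for receptor glycosylation and furin cleavage, 6 fell and 0 rose. Mfng stood at 19.4 ± 4.33 CPM in WT and 4.74 ± 0.388 CPM in PLD, and fell by 2.03 on the log2 scale (edgeR adjusted p = 2.24e-04). Eogt and Xxylt1, which also add sugars to the receptor, fell by 0.99 and by 0.79 on the log2 scale. Lfng, the Lunatic fringe gene, named after its values were seen, fell by 0.83.

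Of the 9 genes of receptor proteases, 3 fell. Psen2, a presenilin gene of the gamma-secretase complex, fell by 1.52 ± 0.21 (SE) on the log2 scale, with 82.5 ± 23.5 CPM in WT and 28.8 ± 0.976 in PLD (edgeR adjusted p = 8.01e-04). Aph1b was at -0.41 (adjusted p = 0.0326), a call lost in most alternatives, and its reads cannot be well parted from those of its near-identical copy Aph1c.

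In the nucleus, 2 of 9 activator genes fell and 2 rose. Snw1 rose by 0.74 and Maml3, a Mastermind-like gene, by 0.94 on the log2 scale, and Kat2a fell by 0.65. Rbpj, named after its values were seen, fell by 0.38 (edgeR adjusted p = 0.0177). Of the 11 co-repressor genes 4 fell and 3 rose, with Tle2 at -0.83 and Tle3 at 0.88 as the extremes and Ctbp1 at 0.54. Of the 12 genes listed here as negative regulators 4 fell and 2 rose. Numbl, a relative of the Notch inhibitor Numb, fell by 1.63 and Dtx3 by 0.87, and Dtx2 rose by 0.68.

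Of the 7 other HES and HEY genes, 3 were tested. Hey2 stood at 10.8 ± 3.66 CPM in WT and 2.60 ± 0.485 in PLD, and fell by 2.05 ± 0.29 (SE) on the log2 scale (edgeR adjusted p = 9.98e-04). Hey1 fell by 0.79 (adjusted p = 0.0223) and Hes6 rose by 0.80. The call of Hey1 was lost when PLD replicate 1 or 3 or WT replicate 1 or 3 was left out, with adjusted p between 0.0536 and 0.0603. Hes7 had 44 reads in WT and 13 in PLD. Hes3 and Hes5 had 2 and 5 reads in WT and 0 in PLD.

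The RBPJ heptamer was searched in the same 250 bases for the 52 of these 65 genes with a RefSeq promoter, 68 promoters in all. It was found for Hey2, Lfng, Psen2, Spen, Hes7 and, at 2 places, Hes5. It occurred in 5.42% of all RefSeq promoters of this length. Hes5 and Hes7 had too few reads for the test. Of the tested genes with the heptamer, Hey2, Lfng and Psen2 were called lower in PLD and Spen was not called. Beside this, 28.4% of all tested genes and 23 of the 59 tested pathway genes were lower. Among called genes only, 4357 were lower and 4136 higher over all tested genes, and 23 were lower and 10 higher among the pathway genes. A link of the heptamer to these changes was not tested. The 3 called genes are shown, with the heptamer in capitals and the RefSeq build GRCm38.p6.
Hey2, chr10:30842969-30843005, minus strand: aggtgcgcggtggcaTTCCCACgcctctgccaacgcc
Lfng, chr5:140607217-140607253, plus strand: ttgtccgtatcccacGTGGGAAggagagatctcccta
Psen2, chr1:180246018-180246054, minus strand: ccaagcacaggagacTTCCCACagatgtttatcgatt
The first letter of the heptamer lies 207 bases before the start of Hey2, 109 before that of Lfng and 89 before 1 of the 2 starts of Psen2, whose other start has none. Spen, with the heptamer 9 bases before its start, did not pass the test (log2 fold change -0.22, edgeR adjusted p = 0.214).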

How the data were processed

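Each library has a table of unnormalised gene counts, deposited by the authors, who per the file headers ran featureCounts 1.6.0 with GENCODE vM25 (mm10) and named no option for strand, read pairs, multi-mapping or overlap. Reads in exonic bases that a gene shares with an antisense gene therefore cannot be assigned by strand. STAR 2.7.4a, SAMtools 1.12 and DESeq2 1.26.0 are named in the submitters' processing notes.

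Symbols were matched for 55141 of 55401 gene IDs with GENCODE vM21. The 6 libraries entered 1 fit in edgeR 4.0.16 under R 4.3.3, with the group-wise filterByExpr, TMM factors, glmQLFit and glmQLFTest, Benjamini-Hochberg adjustment over 15334 genes, threshold 0.05. Log2 fold changes are PLD minus WT. CPM values are TMM-normalised, and TPM values use the deposited exonic lengths and no TMM factors. Shares and ratios were tested with two-sided exact permutation tests (scipy 1.17.1). The exact intervals of the Dlk1 and Dner read ratios and the floor of 3 reads cover counting error only. The intervals of the log2 fold changes come from the edgeR fit and include the spread among libraries.

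The Notch genes, pathway lists and marker lists were chosen with earlier results of these data known. Named genes were the 10 members, up to 3 genes per pathway list with the smallest p, the 2 nearest genes to each member by library course (mean log2 CPM of at least 3, prior count 2), Epcam and Pecam1. Some genes that this rule names are not reported here. Further marker lists gave the following counts: of 12 hepatocyte markers 5 fell and 4 rose, of 11 tested leukocyte markers 2 fell and 1 rose, of 6 mesothelial markers 4 fell and 1 rose, and of 8 immediate early genes 4 fell and 0 rose.

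Alternatives were DESeq2 1.42.0, limma-voom 3.58.1, RLE and upper-quartile factors, 2 other filters, a robust fit, a replicate block, a 2-fold minimum and leaving out each library. Leaving out replicate 1 of both groups and removing the loess trend of fold change on length (span 0.5) were chosen after seeing the data. Scripts were tested on simulated data. Promoters came from the RefSeq table of GRCm38.p6.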

Additional observations from a re-analysis of the deposited data

How the results depend on the processing

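Of the 10 Notch genes, 6 were lower under each refit that left out a library and each change of tool, scaling or filter, 7 were lower with the replicate block and 7 with the length trend removed, and 5 with a 2-fold minimum. With the length trend removed, 1 Notch gene (Notch2) was higher, and 15 other pathway genes were lower. With the 2-fold minimum, 6 other pathway genes were lower and 1 higher, and 2775 of all genes were lower and 1413 higher. Leaving out libraries gave 14 to 22 other pathway genes lower. When libraries were left out, the log2 fold change of Jag2 ran from -0.03 to 0.40 and that of Coq10a from -0.00 to 0.35, the lowest of each without WT replicate 2. The cause of these differences was not tested.

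The labels number the replicates alike in both groups, but same-numbered libraries did not all deviate together (r = 0.156, 0.036 and 0.061), and not every library correlated best with its own number. With the replicate block, 4242 of all genes were lower and 3920 higher, 18 other pathway genes were lower and 10 higher, and Hes1 was called (log2 fold change -0.36, edgeR adjusted p = 0.0262).

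With 3 libraries a group, exact permutation tests cannot go below 0.1. Each of the 10 genes had at least 478 reads in a group. Genes with few reads, such as Dlk1 and Dner, are limited by depth.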
